A study of Mus musculus with 2 samples.

Results

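The 9 early genes Egr1, Egr2, Egr3, Nr4a1, Nr4a2, Nr4a3, Ier2, Ier3 and Ier5 were followed in pancreatic islets of db/db and db/m mice. They were chosen by name, as members of the early growth response, Nr4a receptor and immediate early response groups, and make up 9 of the 44713 genes in the count table. Each group had 1 RNA sequencing library. The db/db library carried the genotype label Lepr-/- and the db/m sample the label wild type, both on a C57BL/6 background, and Lepr encodes the leptin receptor. The name db/m usually denotes mice with 1 mutant copy of Lepr, so whether these controls were wild type or carriers is uncertain. For both, islets were released with collagenase, purified on a Histopaque gradient and taken straight to RNA extraction, and ribosomal RNA was depleted. The sources used here do not give age, treatment or the number of animals behind a library.

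Immediate early genes are switched on within minutes of a stimulus without new protein synthesis, through kinases that act on factors already bound at their promoters, and their RNAs decay quickly. Egr1, Egr2 and Egr3 encode zinc finger transcription factors that bind GC-rich sites. Nr4a1 (Nur77), Nr4a2 (Nurr1) and Nr4a3 (Nor1) encode orphan nuclear receptors whose activity follows mainly from how much of them is made. Ier2 and Ier5 encode related nuclear proteins, and Ier3 encodes a small membrane-associated protein linked to cell survival. In beta cells, glucose, calcium entry and cyclic AMP raise Egr1 and Nr4a transcripts, and cell isolation is a known trigger of the whole class in many tissues.

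The libraries held 18233695 counts (db/db) and 16271129 counts (db/m). After TMM scaling (trimmed mean of M values), 1 count was worth 0.0516 CPM (the usual count scaled to library size) in the db/db sample and 0.0653 CPM in the db/m sample. Because each group is a single library, differences have no replicate check and no p-value is given. Each ratio of db/db over db/m carries a 95% exact interval that covers counting error only. PCR copies of one molecule are counted as separate reads, so the true uncertainty is larger. A gene was called lower or higher when the mean of its unscaled CPM was at least 1, the ratio at least 2-fold and the interval excluded 1. Of the 10300 genes that reached 1 CPM, 4.04% were called lower and 3.83% higher. The 15 acinar cell markers, genes of digestive enzymes and other exocrine products, took 59.8% of all counts in db/db and 60.4% in db/m. The 10 beta cell markers took 0.166% and 0.147%, so the labelled islet tissue was mostly exocrine RNA in both. In bulk RNA, fewer cells of a type and less RNA per cell cannot be told apart.

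All 9 early genes had a lower scaled level in the db/db sample than in the db/m sample. Summed, they stood at 33 CPM in the db/db sample and 181 CPM in the db/m sample, which is 5.49-fold lower (interval 5.03 to 5.99). Of the 9 members, 5 reached 1 CPM. Of these, 4 were called lower (Egr1, Ier2, Nr4a1 and Nr4a2) and 1, Ier5, was neither, beside the 4.04% of all compared genes called lower. The other 4 (Egr2, Egr3, Nr4a3 and Ier3) did not reach that level. With no minimum level, 7 of the 9 were called lower, all but Egr3 and Ier5, beside 4.31% of the 18886 genes with a count. The median log2 ratio over all 9 was -2.15, with Egr3 set at a floor of 3 counts. Over the 5 members that reached 1 CPM it was -1.70, against 0.02 for all genes compared, which also reached 1 CPM. A gene that passes the filter only through the library where it is high had to differ. The 5 members that reached 1 CPM did so in both libraries, but some other genes called did not. These counts are a description.

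**Figure D1:**
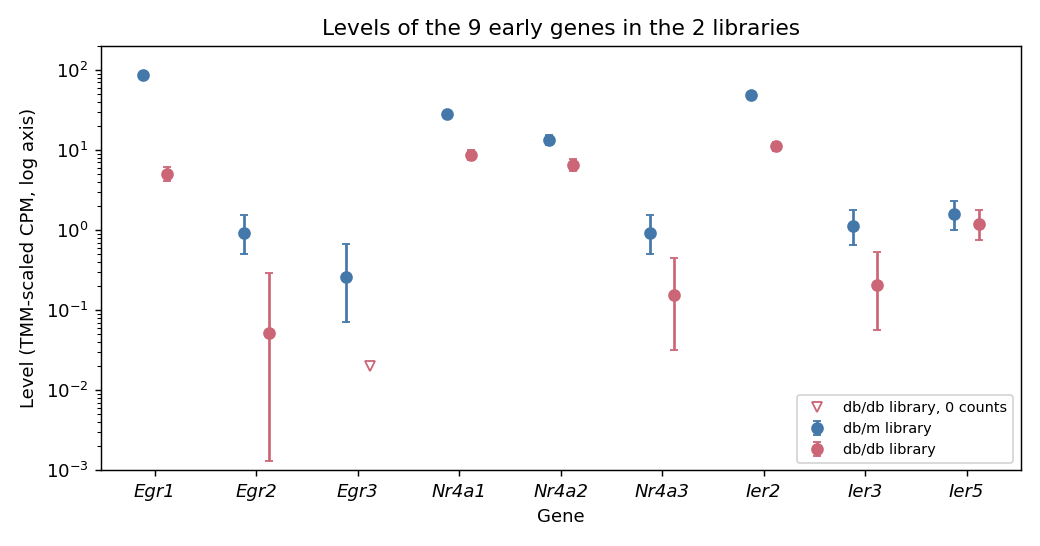
Levels of the 9 early genes (x axis) as TMM-scaled CPM on a log axis, with exact 95% Poisson intervals, in the db/m sample (blue) and the db/db sample (red); the open triangle marks 0 counts and its height is arbitrary. The db/m point is above the db/db point for all 9 genes, from 85.5 against 5.06 CPM for Egr1 to 1.57 against 1.19 CPM for Ier5.

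Egr1 encodes the best known factor of the early growth response group and lies on chromosome 18 (34861207 to 34864956 in GRCm38). It had 98 counts in the db/db sample and 1310 in the db/m sample. Its scaled level was 5.06 CPM (Poisson interval 4.11 to 6.16) against 85.5 CPM (81 to 90.3). Egr1 was the highest of the 9 in the db/m sample and the fourth in the db/db sample by CPM. The difference was 16.9-fold (13.8 to 21). Only 17 of the 10300 compared genes had a lower ratio. In the db/m sample Egr1 exceeded 97.9% of detected genes in counts, and in the db/db sample 63.7%.

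Egr2, a factor known from myelinating cells and lymphocytes (chromosome 10, 67534469 to 67542188), had 1 count in the db/db sample and 14 in the db/m sample. The ratio was 0.0565, with an interval of 0.00134 to 0.371 that reaches down to a 2.7-fold difference. Egr3, which can act beside Egr2 in lymphocytes (chromosome 14, 70077317 to 70082613), had 0 counts against 4. A floor of 3 counts in the db/db sample makes it at least 1.69-fold lower, but the exact interval of the ratio reaches 1.2, so at this depth a difference was not detectable. Egr1 made up 99% of the counts of the Egr genes in the db/db sample (exact binomial interval 94.5% to 99.97%) and 98.6% in the db/m sample (97.9% to 99.2%). The Egr genes as a sum therefore describe Egr1.

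The Nr4a receptors bind DNA as monomers or pairs and lack a classical ligand. Nr4a1 (chromosome 15, 101253902 to 101274795) had 168 counts in the db/db sample and 432 in the db/m sample, or 8.67 CPM (7.41 to 10.1) against 28.2 CPM (25.6 to 31). It was 3.25-fold lower (2.72 to 3.91). Nr4a2 (chromosome 2, 57106830 to 57124003) had 127 counts against 203, or 6.55 CPM (5.46 to 7.8) against 13.3 CPM (11.5 to 15.2). Its 2.02-fold difference (1.61 to 2.54) lies at the fold limit, and the call was lost with scaling by library totals, where the log2 ratio was -0.84 in place of -1.02. Nr4a3 (chromosome 4, 48045078 to 48086447) had 3 counts against 14, a ratio of 0.169 (0.0312 to 0.607). No difference smaller than 1.65-fold is inside that interval.

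Within the receptors the balance differed between the libraries. Nr4a1 made up 56.4% of their counts in the db/db sample (50.5% to 62.1%) and 66.6% in the db/m sample (62.8% to 70.2%). Nr4a2 made up 42.6% (36.9% to 48.4%) and 31.3% (27.7% to 35%). Set directly against each other, which cancels the scaling, the ratio of Nr4a2 was 1.61 times that of Nr4a1 (1.2 to 2.16). Nr4a3 stayed a minor member, with 1.01% of the receptor counts in the db/db sample and 2.16% in the db/m sample.

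Ier2, an intronless gene (chromosome 8, 84661331 to 84662852), had 215 counts in the db/db sample and 754 in the db/m sample. Its level was 11.1 CPM (9.66 to 12.7) against 49.2 CPM (45.8 to 52.9), a 4.44-fold difference (3.81 to 5.19). In the db/db sample Ier2, not Egr1, had the most counts of the 9. Ier3 (chromosome 17, 35821713 to 35822911) had 4 counts against 17, a ratio of 0.186 (0.0455 to 0.57). Ier5 (chromosome 1, 155096367 to 155099636) had 23 counts against 24, or 1.19 CPM (0.753 to 1.78) against 1.57 CPM (1 to 2.33). The Ier5 ratio was 0.757 (0.409 to 1.4), so a difference up to 2.45-fold lower or 1.4-fold higher is within counting error. Ier5 was also 9.5% of the Ier counts in the db/db sample (6.12% to 13.9%) and 3.02% in the db/m sample (1.94% to 4.46%).

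**Figure D2:**
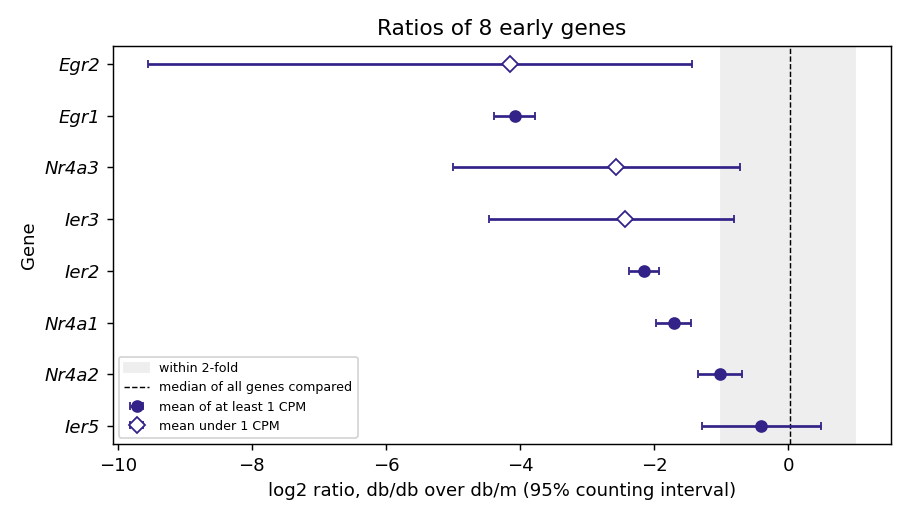
log2 ratio of db/db over db/m (x axis) for 8 early genes (y axis) with exact 95% counting intervals; filled circles have a mean of at least 1 CPM, open diamonds less, and Egr3, with 0 counts in the db/db sample, is left out. The grey band marks ratios within 2-fold, and the dashed line is the median of all genes compared (0.02). Egr1 at -4.08 and Ier2 at -2.15 have narrow intervals outside the band, and Ier5 at -0.40 has an interval across 0.

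The members did not share one ratio beyond counting error. Each of the 36 pairs was compared through the ratio of their ratios, with an exact conditional interval. The interval excluded 1 in 13 pairs, and among the 10 pairs of the 5 members that reached 1 CPM it did so in 9. The exception was Ier5 against Nr4a2 (1.53, 0.789 to 2.96). The ratio of Ier2 was 3.81 times that of Egr1 (2.93 to 4.97), and that of Nr4a1 was 1.36 times that of Ier2 (1.07 to 1.73). In the order of ratios Egr1 was therefore followed by Ier2, Nr4a1 and Nr4a2, each apart from the next beyond counting error. The places of Egr2, Nr4a3 and Ier3, with 1 to 4 counts in the db/db sample, were not set: none of them differed from its neighbours in the order.

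By raw counts, which do not correct for gene length, the make-up of the group differed between the libraries. Egr1 gave 47.3% of the counts of the 9 genes in the db/m sample (45.4% to 49.1%) and 15.3% in the db/db sample (12.6% to 18.4%). Ier2 gave 27.2% and 33.6%, Nr4a1 15.6% and 26.3%, and Nr4a2 7.32% and 19.9%. Without Egr1, the other 8 summed to 27.9 CPM in the db/db sample and 95.5 CPM in the db/m sample, still 3.42-fold lower (3.1 to 3.78).

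**Figure D3:**
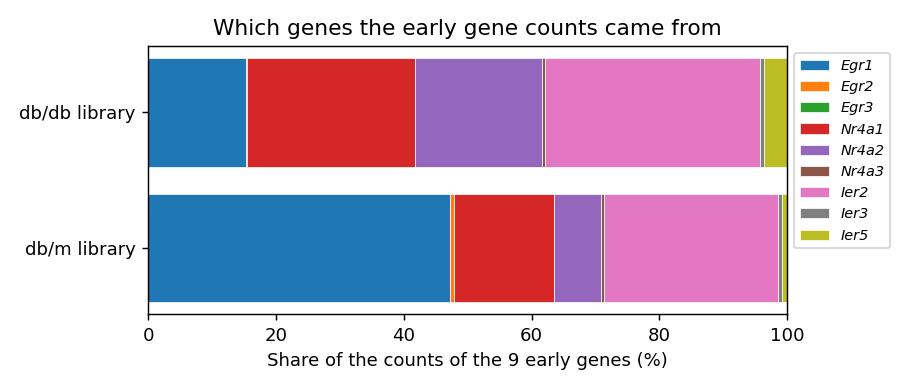
Share of the summed counts of the 9 early genes (x axis, percent) that each gene gave in the db/m sample (2772 counts) and the db/db sample (639 counts), as stacked bars. The Egr1 segment takes 47.3% in the db/m sample and 15.3% in the db/db sample, while the Nr4a1 and Nr4a2 segments are wider in the db/db sample.

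Levels of different genes can be compared only per length, and here only the genomic span with introns was at hand, which understates the intron-rich receptors. On the scale of CPM per kb of span, Ier2 led in both libraries, with 7.29 in the db/db sample and 32.4 in the db/m sample. Egr1 followed with 1.35 and 22.8, below Ier2 beyond counting error in each. In the db/db sample Nr4a1, Nr4a2, Ier5 and Ier3 came next, from 0.415 to 0.172, and no neighbours among these 4 differed. In the db/m sample Nr4a1 (1.35), Ier3 (0.926) and Nr4a2 (0.772) did not differ from their neighbours among the 3, and Nr4a2 exceeded Ier5 (0.479) by 1.61 times (1.05 to 2.57). Egr2, Egr3 and Nr4a3 were the lowest 3 in both.

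The 250 bases before the transcription starts of Nr4a1, Nr4a2 and Ier5 are shown, from RefSeq on GRCm38.p6. These genes were picked by their calls, with Nr4a1 and Nr4a2 lower and Ier5 neither. The ratios of Ier5 and Nr4a2 did not differ beyond counting error (1.53, 0.789 to 2.96). A link between these windows and the ratios was not tested. RefSeq windows were found for 6 members (Egr2, Nr4a1, Nr4a2, Nr4a3, Ier3 and Ier5), and the motifs were chosen with the values known. Capitals mark TGACG on either strand, the core of the cyclic AMP response element. The regions are chr15:101266596-101266845 on the plus strand, chr2:57124004-57124253 on the minus strand and chr1:155099637-155099886 on the minus strand. The Nr4a1 window lies inside the span given above for that gene, so it precedes an internal start and not the first one.
Nr4a1: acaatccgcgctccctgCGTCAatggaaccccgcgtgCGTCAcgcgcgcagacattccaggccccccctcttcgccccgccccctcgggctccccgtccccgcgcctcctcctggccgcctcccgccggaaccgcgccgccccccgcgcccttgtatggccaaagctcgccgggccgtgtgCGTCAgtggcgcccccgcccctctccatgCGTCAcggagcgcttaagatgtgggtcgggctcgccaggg
Nr4a2: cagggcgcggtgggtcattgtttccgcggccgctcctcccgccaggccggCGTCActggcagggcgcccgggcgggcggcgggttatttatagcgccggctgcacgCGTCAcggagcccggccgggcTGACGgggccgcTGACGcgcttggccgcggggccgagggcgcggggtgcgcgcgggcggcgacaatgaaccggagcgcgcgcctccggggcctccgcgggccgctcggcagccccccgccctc
Ier5: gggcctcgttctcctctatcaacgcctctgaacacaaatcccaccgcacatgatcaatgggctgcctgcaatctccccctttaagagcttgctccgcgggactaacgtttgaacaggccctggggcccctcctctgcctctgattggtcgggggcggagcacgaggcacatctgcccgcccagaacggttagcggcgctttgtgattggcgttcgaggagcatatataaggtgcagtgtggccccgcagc

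The core TGACG, which binds factors of the CREB family, was present in the windows of 4 of the 6 members (Nr4a1, Nr4a2, Nr4a3 and Egr2), against 19.8% of all 27025 genes with a window. Nr4a1, Nr4a2 and Nr4a3 each held 4 matches, and 0.163% of all genes had a window with at least 4. That limit equals the receptors' own count. These shares were not matched for base content, and TGACG contains a CG pair. The median share of G and C was 61.4% in the member windows and 52.4% in all windows. It was 74.4% in the Nr4a1 window and 80% in the Nr4a2 window. Whether TGACG exceeds what base content gives was not tested. In Nr4a1 the matches began 233, 213, 69 and 40 bases before the start, and in Nr4a2 200, 144, 123 and 111 bases before it. The full palindrome TGACGTCA, which contains the core, was in none of the 6 members and in 1.77% of all genes. The CArG box, bound by serum response factor, was in 1 of the 6 (Egr2) and in 1.62% of all genes. The site GCGNGGGCG, bound by Egr factors, was in Nr4a1 and Nr4a2 and in 5.33% of all genes. The receptors' own monomer site AAAGGTCA was in none of the 6 and in 1.55% of all genes. Neither the core nor the CArG box was in the Ier3 and Ier5 windows. These matches describe letters in a short window and show no binding.

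Within 30 kb of a member lay 17 measured genes, none of them overlapping one. Of the 11 with at least 1 CPM, 0 were called lower and 0 higher, beside the 4.04% and 3.83% of all genes. Of the 6 others, Reep2, 13744 bases from Egr1, had 9 counts in the db/db sample and 0 in the db/m sample. Kdm3b, 21837 bases from Egr1, had 518 counts in the db/db sample and 392 in the db/m sample (ratio 1.04, 0.914 to 1.19). Ado, 2323 bases from Egr2, had 288 and 222 (1.02, 0.858 to 1.23). Beside Ier2, Nacc1 had a ratio of 0.717 (0.614 to 0.836), Trmt1 1.21 (1.07 to 1.38) and Cacna1a 1.13 (0.773 to 1.66). Grasp near Nr4a1 stood at 0.577 (0.386 to 0.857). Near Ier3, Tubb5 stood at 0.546 (0.435 to 0.682), Flot1, 409 bases away, at 0.813 (0.639 to 1.04) and Mdc1 at 0.988 (0.729 to 1.34). Bin3 near Egr3 (1.44, 1.04 to 2) and Mr1 near Ier5 (1.41, 0.826 to 2.46) lay above 1.

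**Figure D4:**
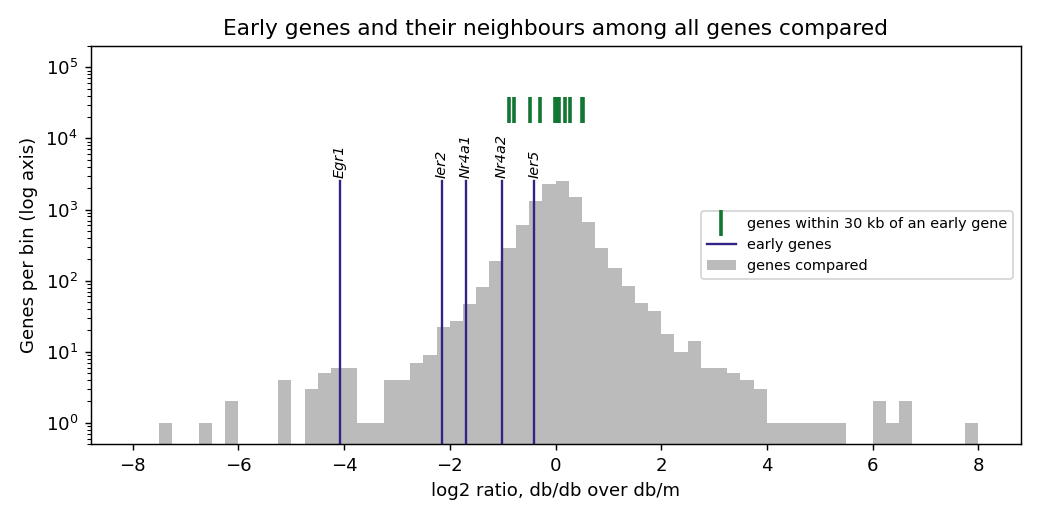
Number of genes per bin of log2 ratio, db/db over db/m, for the 10300 genes compared (grey bars, log axis), with the 5 early genes of at least 1 CPM as vertical lines and the 11 measured neighbours within 30 kb as green ticks at an arbitrary height. Egr1 (-4.08) stands in the far left tail, Ier2, Nr4a1 and Nr4a2 lie between -2.15 and -1.02, and the neighbours lie between -0.87 and 0.52.

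Of the 9 members, 4 span less than 5 kb (Egr1, Ier2, Ier3 and Ier5). The median genomic span of all 9 was 5297 bases (1199 to 41370), against 22748 bases for the 9544 compared genes with a RefSeq span. Of 942 compared protein-coding genes under 5 kb 9.02% were called lower, and of 8143 longer ones 3.01%, with median log2 ratios of 0.0046 and 0.03. The part of gene length in the members' ratios was not tested.

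Egr4 had 0 counts in both libraries. Of 8 genes of relatives and cofactors, 4 reached 1 CPM and 0 were called, too few to set against the 4.04% and 3.83% of all genes. Nab1 and Nab2 encode corepressors that bind Egr proteins, and Nab2 is itself a known Egr1 target. Nab1 had 751 counts in the db/db sample and 643 in the db/m sample (ratio 0.923, 0.83 to 1.03), and Nab2 had 24 and 25 (0.759, 0.415 to 1.38). Rxra, which encodes a partner of Nr4a1 and Nr4a2 in DNA binding, stood at 1.14 (0.696 to 1.91).

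The factors and kinases that act upstream of early genes mostly lay within 2-fold, as most genes did. Of all genes compared, 4.04% were called lower and 3.83% higher, and these lists are too short to set against those shares. Among serum response factor and its partners, 1 of 6 was lower (Elk3, 34 counts in the db/db sample against 61, 2.27-fold, 1.47 to 3.56), and the median log2 ratio was -0.44. Srf itself was at a ratio of 0.573 (0.481 to 0.681) and its coactivator gene Mkl1 at 0.618 (0.435 to 0.875), both within 2-fold. Of 8 CREB factors and coactivators 0 were called, with Atf1 at 1.52 (1.3 to 1.78), Crem at 0.753 (0.476 to 1.19) and Crtc2 at 0.756 (0.558 to 1.02). Of 16 genes of the MAP kinase route with at least 1 CPM 0 were called, with a median log2 ratio of 0.04. In that route Mapk14 stood at 1.58 (1.2 to 2.1) and Mapk9 at 1.42 (1.25 to 1.6). In the calcium and calcineurin route 1 of 12 was lower (Nfatc2, 2.01-fold, 1.6 to 2.54, a call lost with library totals), and Camk2d stood at 1.58 (0.889 to 2.9). RNA levels do not report on the activity of these kinases and factors.

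Of 23 compared genes on 4 lists of reported targets of the members or of their regulators, 2 were called higher and 3 lower, beside 3.83% and 4.04% of all genes compared. Of 8 compared genes reported as Egr1 targets, 1 was higher and 0 were lower. The higher one was Cd44, a cell surface receptor for hyaluronan, with 100 counts in the db/db sample and 31 in the db/m sample (2.55-fold, 1.69 to 3.95). Pdgfa stood at 0.615 (0.483 to 0.781) and Tgfb1 at 0.706 (0.455 to 1.09). Of 10 genes reported as Nr4a targets only Eno3 (1.25, 0.896 to 1.76) and Fbp2 (0.861, 0.651 to 1.14) reached 1 CPM. Below 1 CPM, Th had 29 counts in the db/db sample against 1 (22.9-fold higher, 3.8 to 936). E2f1 had 8 against 13 (ratio 0.486, 0.175 to 1.27), and the rest had 0 to 3 counts in each library. Of 7 compared CREB targets, 1 was higher (Ppargc1a, 2.12-fold, 1.63 to 2.77) and 1 lower (Irs2, 2.18-fold, 1.8 to 2.66, a call lost with library totals), and Rgs2 stood at 0.582 (0.434 to 0.779). Of 6 compared cytoskeletal targets of serum response factor, with a median log2 ratio of -0.92, 2 were lower, Actg1 (2.31-fold, 2.09 to 2.55) and Acta2 (2.8-fold, 1.45 to 5.7), and Flna stood at 0.509 (0.406 to 0.636). Acta2 was under 1 CPM in the db/db sample and passed the filter only through the db/m sample.

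Most other immediate early genes were lower with the members. Of 37 that reached 1 CPM, 23 were called lower and 0 higher, beside 4.04% and 3.83% of all genes compared. The median log2 ratio of the 37 was -1.46, and this direction was known when the list was made. Klf2, Ctgf and Arc, among the 23, were under 1 CPM in the db/db sample and passed the filter only through the db/m sample. The other 14 were neither, among them Gadd45g at 0.954 (0.705 to 1.29). A ratio below 1 was seen for 36 of the 37, all but Per1 (1.43, 1.29 to 1.58). With library totals 19 were called lower. Egr1 lay in the range of the lowest of them, Atf3 (23.5-fold, 17 to 33.3), Fosb (19.2-fold, 13.9 to 27.5) and Klf2 (18.9-fold, 11.2 to 34.3). Zfp36, which encodes a protein that speeds the decay of early gene RNAs, was itself lower (62 counts against 214, 4.37-fold, 3.28 to 5.89), as was Zfp36l1 (2.84-fold, 2.5 to 3.25). The other 4 of 6 genes of this decay route were neither, among them Hnrnpd at 0.785 (0.663 to 0.929).

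The 5 other genes of at least 10 CPM whose log2 ratio over the 2 libraries came closest to the median of the 9 members were Nfkbiz (-2.13), Nfasc (-2.11), the mitochondrially encoded ND2 (-2.09), Flrt2 (-2.06) and Junb (-2.24). Likeness here rests on 1 ratio per gene.

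Heat shock genes also moved with the early genes. All 9 on a list made with this direction known were called lower, beside 4.04% of all genes compared. The sum of the 9 stood at 257 CPM in the db/db sample and 1676 CPM in the db/m sample. Hspa1a was 35.8-fold lower (28.9 to 44.9), Hspa1b 35.6-fold (30.5 to 41.8), though reads of these near-identical copies may be split arbitrarily, and Hsph1 15.4-fold (13.8 to 17.2). With 1 library per group, handling of the islets and genotype cannot be told apart.

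Markers of other cells differed less in sum than the early genes did. Of the beta cell markers 6 of 10 were lower, beside 4.04% of all genes compared, and their median log2 ratio was -1.19. Among the lower ones were Mafa (4 counts against 33, 10.4-fold, 3.71 to 40.6), Slc2a2 (4.66-fold, 3.19 to 6.98) and Slc30a8 (4.35-fold, 3.3 to 5.81). Mafa was under 1 CPM in the db/db sample and passed the filter only through the db/m sample. The sum of the 10 was 1558 CPM in both libraries. Most of that sum was Ins2, with 1081 CPM in the db/db sample and 1029 CPM in the db/m sample. Ins1 and Ins2 together stood at 1216 CPM in the db/db sample and 1314 CPM in the db/m sample, while Iapp, the islet amyloid peptide gene, stood at 307 against 182 CPM (ratio 1.69, 1.61 to 1.76). With library totals 5 were lower, without Ins1, and the ratio of the sums was 1.13. Acinar markers summed to a ratio of 0.877 (0.876 to 0.878), with 1 of 15 lower (Amy2a5, a call lost with library totals), and duct markers to 0.67 (0.634 to 0.709), with 0 of 5 called. The 7 macrophage markers summed to 7.33 CPM in the db/db sample and 4.9 CPM in the db/m sample, with Lyz2 higher (2.27-fold, 1.52 to 3.49), Aif1 at 0 in both and Itgam and Mrc1 at 0 in the db/m sample. Without Lyz2 the macrophage markers had 47 counts in the db/db sample against 42 (ratio 0.884, 0.571 to 1.37). Below 1 CPM, Cd68 had 2 counts against 12 and Csf1r 18 against 3, so these markers did not point one way. The 8 lymphocyte markers summed to 1.29 and 2.48 CPM, with Cd3e, Ms4a1 and Trac at 0 in the db/db sample and Cd3g and Cd8a at 0 in the db/m sample. Endothelial markers summed to 9.08 and 11.8 CPM, with 2 of 5 lower (Plvap and Kdr, the latter lost with library totals), and stellate and fibroblast markers to 9.19 and 6.92 CPM, with 0 of 3 called. Below 1 CPM, Col1a1 had 30 counts in the db/db sample against 5 (4.74-fold higher, 1.82 to 15.7). Pdgfra had 11 against 1 (8.69-fold higher, 1.26 to 374), while Rgs5 had 16 against 18 (ratio 0.703, 0.335 to 1.46). Neither the endothelial list nor the stellate and fibroblast list had a marker at 0. The part of cell composition in the early gene ratios was not tested.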

How the data were processed

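RNA was measured in 2 islet libraries, 1 of db/db and 1 of db/m mice, grouped by title. The authors deposited whole-number counts per gene. The submitters' processing notes name HISAT2 2.0.4 and the builds mm10 and GRCm38. The sources used here do not say how reads were assigned to genes, or with which annotation and strand setting. Counts were scaled with TMM (edgeR 4.0.16, R 4.3.3). Intervals of ratios are exact Clopper-Pearson intervals at 95%, computed in Python 3.11.15 with scipy 1.17.1. They were run on simulated counts with counting error only and library totals as sizes. That run cannot speak to PCR copies, spread between animals or the scaling. No test between genotypes was possible, and p-values were not computed. A library at 0 counts was given a floor of 3 counts for the log2 ratio.

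The members and the 19 other gene lists were chosen with earlier results of these data known. Named are the members, from each list up to 3 genes that reached 1 CPM and differed most, plus genes called (of the other immediate early genes, heat shock genes and cell markers only some are printed), the 5 genes of at least 10 CPM closest to the members' median, and genes within 30 kb with at least 1 CPM. Further genes were named outside this rule with their values known. Among them are Reep2, Th, E2f1, Cd68, Csf1r, Col1a1, Pdgfra, Rgs5, Gadd45g and Per1. Spans come from RefSeq on GRCm38.p6, used in place of the planned exon lengths. Alternatives were 3 other scalings (library totals, DESeq2 1.42.0 size factors, totals without acinar and beta cell markers), other filters, fold limits and intervals. Some genes that entered the list counts are not reported here.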

Additional observations from a re-analysis of the deposited data

How the results depend on the processing

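All 9 early genes had a ratio below 1 under each of the 4 scalings. Scaling by library totals raised the median log2 ratio of all genes by 0.175 and made the median of the early genes -1.97 in place of -2.15. Egr1, Ier2 and Nr4a1 were called lower under every filter, scaling and interval tried, and Nr4a1 was lost at a 4-fold limit, which left 2 early genes. Nr4a2 was lost with library totals, with totals without the marker lists, with a filter of 10 CPM and with an interval wholly beyond 2-fold, each leaving 3. Without a filter, 7 of the 9 were called lower, the added ones being Egr2, Nr4a3 and Ier3, beside 4.31% of all 18886 genes with a count. No early gene was called higher under any setting. The calls in the other gene lists were recomputed under the 3 other scalings, a step added after the data were seen.

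Over all genes, 395 were called higher and 416 lower. Library totals gave 564 higher and 277 lower. The numbers were 745 and 814 without a filter, 36 and 95 at 10 CPM, 889 and 914 at a 1.5-fold limit, 78 and 76 at a 4-fold limit, 99 and 137 with intervals wholly beyond 2-fold, and 138 and 213 with intervals at the Bonferroni level. Stricter settings call fewer genes by construction. Library totals leave out the TMM factors (1.06 for the db/db sample and 0.941 for the db/m sample). This raises every ratio by the same factor and so moves the numbers called. What made the TMM factors of the 2 libraries differ was not tested.

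No paired analysis was possible because the groups share 1 replicate number, and leaving out a replicate would leave a group empty. Levels per kb of the longest or shortest transcript were not run, since transcript lengths were not used here. Depth limits Egr2, Egr3, Nr4a3 and Ier3, whose db/db counts were 0 to 4.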
